A study of Mus musculus with 7 samples.

Results

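The genes of the major histocompatibility complex (MHC) were followed in hematopoietic stem cells (HSCs) of Ahr knockout and wild-type mice. Members were all genes named alone by a probe set of the array whose symbol starts with H2- (the mouse MHC, on chromosome 17), together with B2m, Ciita, Tap1, Tap2, Tapbp and Nlrc5. The rule gave 40 genes of 22180 with such a probe set: 22 class I heavy chain genes or pseudogenes, 4 partner and peptide-loading genes, 11 class II chain or accessory genes, the regulators Nlrc5 and Ciita, and H2-Ke6, which lies in the complex but encodes a dehydrogenase. Each was read from its probe set of highest mean over all arrays. Cd74, the invariant chain, and the classical class I genes H2-D1 and H2-L had no probe set of their own among those used and were not analysed here as members.

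The 7 single-channel Affymetrix arrays comprised 3 from mice labelled Ahr knockout (Ahr-KO) and 4 from mice with wild-type Ahr (WT), all aged 8 weeks on the C57BL/6J background. Marrow was depleted of lineage-positive cells and HSCs were then sorted by SLAM-family surface markers, so every array carries amplified RNA of sorted cells. The labels do not give the Ahr allele, nor whether arrays came from separate mice or pools, which leaves p-values to measure the spread among arrays alone. Knockout and wild type below mean the arrays so labelled. The study asked how loss of Ahr, which encodes a ligand-activated transcription factor, alters HSC transcripts.

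MHC class I molecules display peptides from inside the cell to CD8 T cells and natural killer cells on nearly all nucleated cells. Each consists of a heavy chain and beta-2 microglobulin (B2m), loaded in the endoplasmic reticulum with peptides brought in by the Tap1 and Tap2 transporter and held by tapasin (Tapbp); Nlrc5 drives transcription of the set. Class II molecules present ingested antigens to CD4 T cells and are best known from dendritic cells, macrophages and B cells, under control of the coactivator Ciita. C57BL/6J mice carry the b haplotype, in which H2-Ea is defective, so that the Aa and Ab1 chains form the only class II molecule at the cell surface.

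Ciita is recruited to a promoter module of an X box followed by a Y box, and the module can be read directly in class II members. Stretches of RefSeq promoter windows (GRCm38.p6) are shown 5′ to 3′ for the 5 class II members, of 8 with a window, that hold it, with the X core GCAAC and the Y box GATTGG in capitals. For comparison, H2-K1 is shown with a palindromic NF-kB site as its first capitals and an interferon-response core as its second (GAANNGAAA, here on the other strand). B2m is shown with a longer form of that core, which has 1 more A in its first part.
H2-Aa (chr17:34287852-34287919, minus strand): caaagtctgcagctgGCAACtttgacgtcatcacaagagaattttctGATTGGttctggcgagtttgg
H2-Eb1 (chr17:34305761-34305827, plus strand): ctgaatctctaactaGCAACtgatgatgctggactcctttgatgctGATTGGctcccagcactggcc
H2-Eb2 (chr17:34325528-34325594, plus strand): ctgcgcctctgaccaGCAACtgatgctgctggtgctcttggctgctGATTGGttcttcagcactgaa
H2-Oa (chr17:34092288-34092355, plus strand): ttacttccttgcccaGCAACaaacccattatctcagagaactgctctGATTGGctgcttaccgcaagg
H2-Ob (chr17:34238803-34238867, plus strand): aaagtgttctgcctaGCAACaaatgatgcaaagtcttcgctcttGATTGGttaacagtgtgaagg
H2-K1 (chr17:34000414-34000473, minus strand): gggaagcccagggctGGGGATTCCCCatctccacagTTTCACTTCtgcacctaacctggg
B2m (chr2:122147533-122147572, plus strand): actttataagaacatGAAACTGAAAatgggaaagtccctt

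RefSeq windows, from 250 bases before to 50 after a start site, were matched for 28 of the 40 members. Among class II genes, H2-Ab1, H2-Ea, H2-Pb and the regulator Ciita had no matched window and were not searched. The X core followed by the Y box, 15 to 35 bases apart on either strand, stood in 5 of 8 class II chain or accessory genes, in 0 of 16 class I heavy chain genes, and in 0.407% of all 27025 genes with a window. In the 5 the letters between the motifs numbered 24 to 27. The range of spacing was set after the class II windows had been read. Only the exact letters of the X core and Y box were searched, so a module with other letters would be missed. The Y box letters alone, on either strand, occurred in 23 of 28 members and 18.2% of all genes, and they are part of the module search. The short interferon-response core was found in 5 of 16 heavy chain genes and 0 of 8 class II genes, against 8.68% of all genes; the longer one was in 2 of 28 members and 3.99% of all genes, and the 2 cores can overlap. Only H2-K1 among the members with a window held the NF-kB letters, which 0.0333% of all genes had. The core of the binding element of the Ahr protein, GCGTG on either strand, was in 7 of 28 members and in 35.2% of all genes. These matches describe letters in a window and were not tied to binding.

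Array medians ran from an intensity of 16.9 to 22.1 and pairwise correlations of log2 values from 0.637 to 0.765. Signal without expected expression was set, per array, at the 95th percentile over 1108 probe sets for olfactory receptors; this background mark lay between 33.8 and 42.8. Intensity of Ahr was 34.1, 137 and 26.4 in the knockout against 31.3, 57.9, 14.9 and 20.5 in the wild type. It exceeded the background mark on 1 Ahr-KO array and 1 WT array only. The probe set does not show the deletion, since neither the deleted part nor the probed part is given, and Ahr-KO names the label throughout. Of 10 measured HSC markers 4 exceeded the background mark on all 7 arrays and 6 on some, the first being Kit, Hlf, Meis1 and Gata2. Values were higher in Ahr-KO for 3 of the 10 and lower for 7, with a median log2 difference of -0.65 and none past the adjusted threshold. Slamf1, which encodes the SLAM receptor CD150 used to define such HSCs, passed the mark on 3 of 3 Ahr-KO arrays and 1 of 4 WT arrays (difference 2.58 ± 0.97, SE; unadjusted p = 0.0288, limma adjusted p = 0.963). Fewer cells of a type and less RNA per cell cannot be told apart in such bulk samples.

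Above the background mark on all 7 arrays stood 9 of the 40 members, while 12 exceeded it on none; among all 22180 genes these shares were 13.7 and 34.3%. Probe sets differ in brightness for the same amount of RNA, so levels of single genes are not set against each other. Means and sums over lists are compared only between arrays, with the same probe sets on each.

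No MHC gene differed between genotypes at a limma adjusted p under 0.05, and neither did any other gene (0% of 22180). At an unadjusted p under 0.05 there were 4 members, where 4.02% of all genes reached it: H2-Eb1, H2-Q4 and Tap2 lower in Ahr-KO (2.04% of all genes) and H2-M3 higher (1.98%). The genotypes had separate ranges for 4 members, beside 5.78% of all genes: H2-Eb1, Ciita and Tap2 lower (3.15%) and H2-M3 higher (2.62%). Values were higher in Ahr-KO for 21 members and lower for 19, with a median log2 difference of 0.04 against -0.03 over all genes. Differences are Ahr-KO minus WT in log2(intensity + 1), errors are moderated standard errors (SE), and every member had an adjusted p of 0.963 or more by limma.

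**Figure D1:**
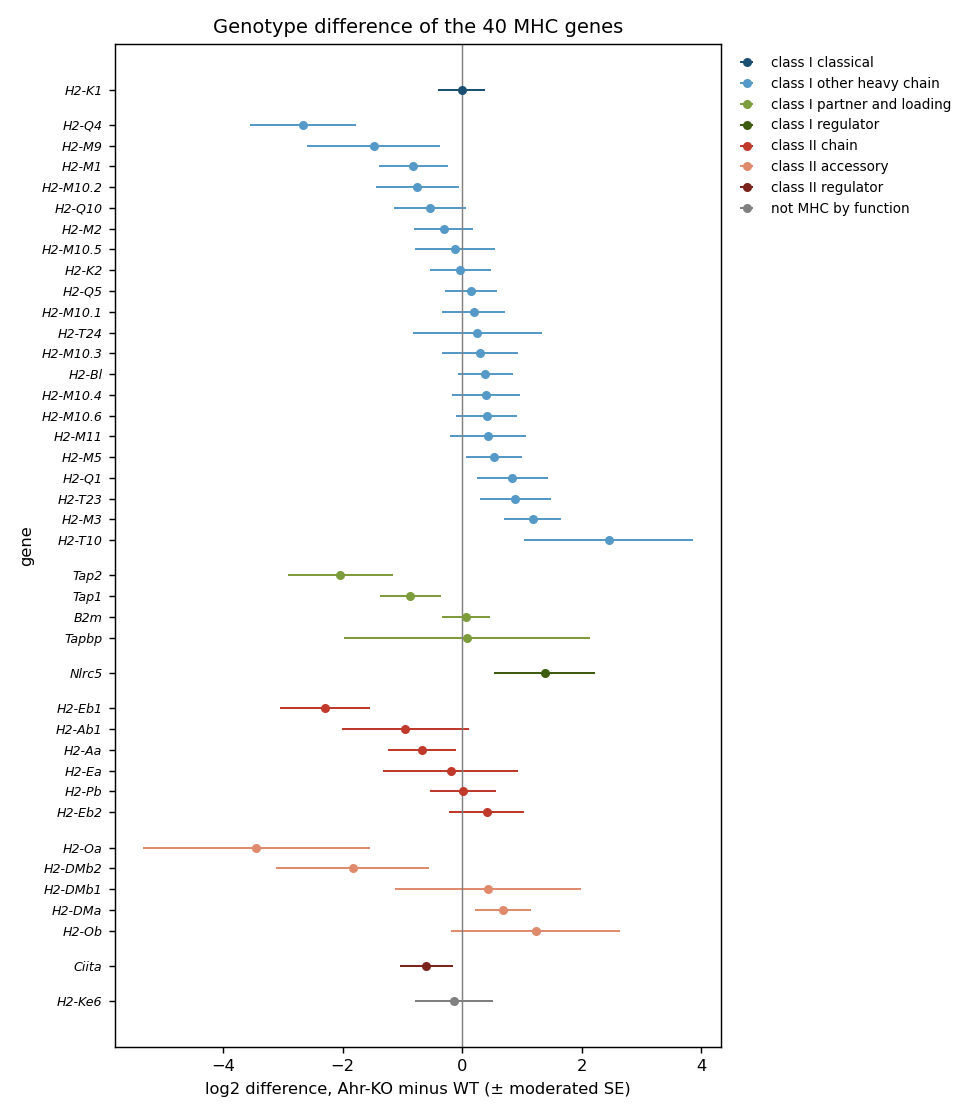
Log2 difference (Ahr-KO minus WT, horizontal axis) of each of the 40 members, grouped by role, with bars of 1 moderated SE. H2-K1 and B2m sit near 0 (-0.01 and 0.06), whereas H2-Oa (-3.45), H2-Q4 (-2.67), H2-Eb1 (-2.30) and H2-T10 (2.45) lie farthest from it.

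Among the class II chains, H2-Eb1 showed the smallest unadjusted p of all members. This gene encodes the beta chain of I-E, the class II molecule that the b haplotype cannot complete. Its intensity was 16.4, 43.4 and 132 on knockout arrays and 170, 441, 228 and 160 on wild-type arrays. Every Ahr-KO value lay below every WT value, with the third Ahr-KO array close to the lowest WT arrays and the second WT array far above the others. The background mark was exceeded on 2 Ahr-KO arrays and on all 4 WT arrays. The log2 difference was -2.30 ± 0.75 (SE), with a 95% interval from -4.04 to -0.55 before any adjustment, an unadjusted p of 0.0163 and a limma adjusted p of 0.963. Leaving out Ahr-KO replicate 1 brought it to -1.58, still lower in Ahr-KO.

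The genes of the I-A molecule pointed the same way with more overlap. H2-Aa, the alpha chain, had intensities of 99, 99.9 and 63.4 on knockout arrays and 213, 147, 58.9 and 188 on wild-type arrays. WT replicate 3 lay below all Ahr-KO arrays and the other 3 WT arrays above them. H2-Aa differed by -0.67 ± 0.57 (SE; limma adjusted p = 0.963), and by -1.07 with WT replicate 3 left out. H2-Ab1, the beta chain, stood at 17.2, 193 and 274 in knockout cells, against 180, 77.8, 170 and 555 in wild-type cells. Its difference of -0.95 ± 1.06 (SE) rested on Ahr-KO replicate 1, the array also lowest for H2-Eb1. Without that array H2-Ab1 differed by 0.27, in the opposite direction.

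H2-Eb2, a second beta-chain gene, did not share that direction, with intensities of 180, 83.5 and 63.7 in the knockout against 138, 89.6, 33 and 73.3 in the wild type. The difference was 0.41 ± 0.63 (SE), and -0.02 without Ahr-KO replicate 1. H2-Ea, annotated in RefSeq as a transcribed pseudogene, reached the background mark on no array: it was listed at 3.49, 9.11 and 0 on knockout arrays and 17.1, 0.53, 5.78 and 0.45 on wild-type arrays. H2-Pb, another class II sequence, was above it on no array either and differed by 0.01 ± 0.55 (SE).

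Ciita, the class II coactivator, also had separate groups, though at the edge of detection. Intensity was 16.6, 27.2 and 20.3 in knockout cells, against 28.6, 30.2, 44.4 and 28.4 in wild-type cells. All Ahr-KO values lay below all WT values, by a narrow margin between Ahr-KO replicate 2 and WT replicate 4, and the background mark was passed on WT replicate 3 alone. The log2 difference of -0.60 ± 0.44 (SE; limma adjusted p = 0.963) had an interval from -1.61 to 0.40.

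**Figure D2:**
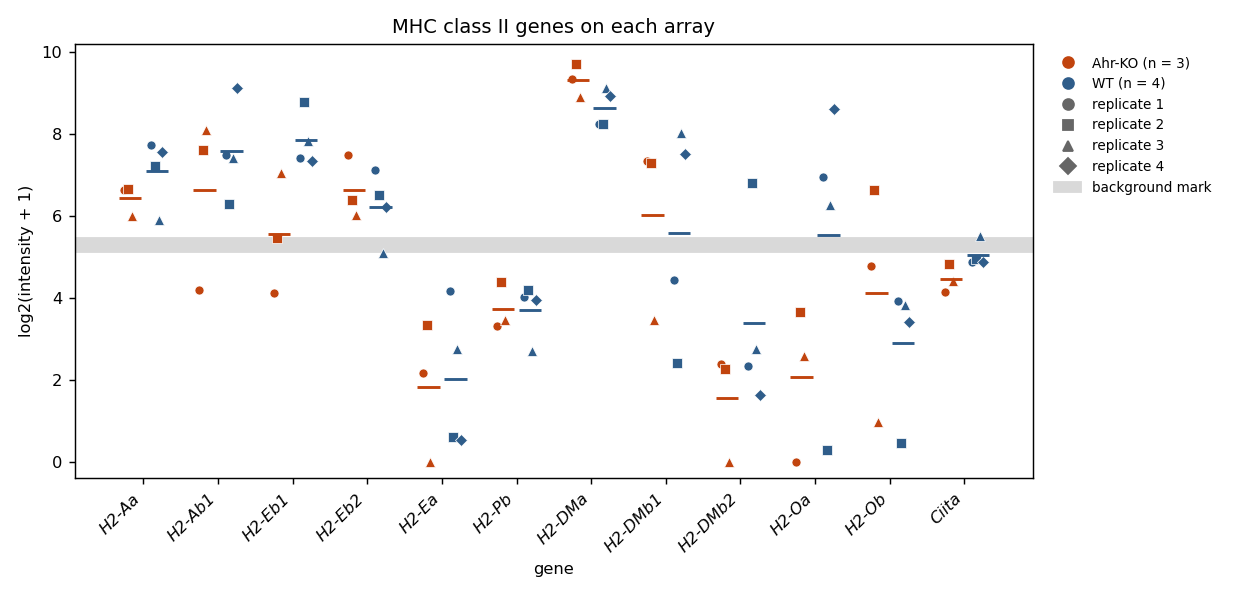
Log2(intensity + 1) of 11 class II chain and accessory genes and Ciita on each array, with group means as bars and the range of the background mark in grey. Groups separate for H2-Eb1 and Ciita. Both groups hold an array near 0 for H2-Oa and for H2-Ob, and H2-DMb2 is bright on WT replicate 2 alone.

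The accessory genes load and edit class II peptides: H2-DM, made of H2-DMa and H2-DMb chains, exchanges peptides, and H2-DO, of H2-Oa and H2-Ob, restrains it. H2-DMa was above the background mark on all 7 arrays, at 649, 838 and 476 in the knockout against 301, 302, 556 and 490 in the wild type. Of the Ahr-KO values 2 exceeded every WT value and the third lay among them, for a difference of 0.68 ± 0.47 (SE; limma adjusted p = 0.963). Its partner H2-DMb1 stood at 160, 156 and 10 on knockout arrays and 20.6, 4.34, 261 and 181 on wild-type arrays. Both groups held bright and dark arrays, so that the difference of 0.43 ± 1.56 (SE) turned to -0.63 without WT replicate 2, -0.22 without Ahr-KO replicate 1 and -0.20 without Ahr-KO replicate 2. H2-DMb2, a close copy of H2-DMb1, exceeded the mark on WT replicate 2 only, at 111, where H2-DMb1 had its lowest value (4.34). H2-DMb2 differed by -1.83 ± 1.28 (SE), or -0.69 without that array. Whether the probes separate the pair was not tested.

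H2-Oa had a large but unsteady difference. It was listed at 0, 11.7 and 4.99 in Ahr-KO, below the background mark on every array, and at 123, 0.22, 76.5 and 390 in WT. WT replicate 2 was as dark as the Ahr-KO arrays while the other 3 WT arrays were clearly above the mark. With that overlap the difference of -3.45 ± 1.90 (SE) had a limma adjusted p of 0.963, and no Ahr-KO array measured it above background, so its size depends on the pseudocount. It was -2.19 with a pseudocount of 16, -2.43 with WT replicate 4 left out and -5.20 with WT replicate 2 left out. A separate probe set was assigned to both H2-Oa and the neighbouring symbol BC051537. It read 18, 9.95 and 5.57 in knockout cells, against 116, 3.65, 43 and 153 in wild-type cells. This probe set exceeded the mark on the same 3 WT arrays, though only just on WT replicate 3 (mark 42.4). Its difference was -1.98 ± 1.19 (SE). H2-Ob was above the mark on Ahr-KO replicate 2 alone, at 98.5, and differed by 1.23 ± 1.41 (SE), or -0.03 without that array.

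Differences of the 5 genes with the X and Y boxes ran both ways. H2-Aa, H2-Eb1 and H2-Oa were lower in Ahr-KO and H2-Eb2 and H2-Ob higher, none past the adjusted threshold. Over the 11 class II genes, 6 had lower values (all genes: 51.6%), with a median log2 difference of -0.19. With single knockout arrays left out that median reached -0.78 (replicate 2) and 0.14 (replicate 3). Leaving out wild-type replicates 1, 2, 3 and 4 in turn gave 0.04, -0.63, -0.33 and -0.44.

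Class I began with the steadiest transcripts of the set. B2m, the light chain of every class I molecule, had intensities of 8086, 7718 and 7787 in the knockout against 8265, 6636, 7368 and 7983 in the wild type. All arrays lay close together, and the log2 SDs were 0.04 (n = 3) and 0.14 (n = 4). The difference was 0.06 ± 0.40 (SE), with a 95% interval from -0.86 to 0.98, wider than the gene's own spread because moderation pulls a very small variance up toward the typical one. H2-K1, the classical heavy chain measured here, read 1303, 1514 and 1548 on knockout arrays and 1303, 1475, 1470 and 1632 on wild-type arrays. The groups overlapped almost fully, with a log2 SD of 0.13 in each and a difference of -0.01 ± 0.40 (SE; 95% interval -0.94 to 0.91). The sign of both values near 0 turned under some settings.

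A probe set shared by H2-D1 and H2-Q2, outside the rule, read 613, 732 and 855 in knockout cells, against 1491, 971, 668 and 1035 in wild-type cells. It was above the mark on all arrays and its difference was -0.46 ± 0.46 (SE; limma adjusted p = 0.963). The heavy chain genes are close relatives, and the array annotation itself assigns some probe sets to 2 or 3 of them, so values of single H2-Q and H2-T genes are uncertain.

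**Figure D3:**
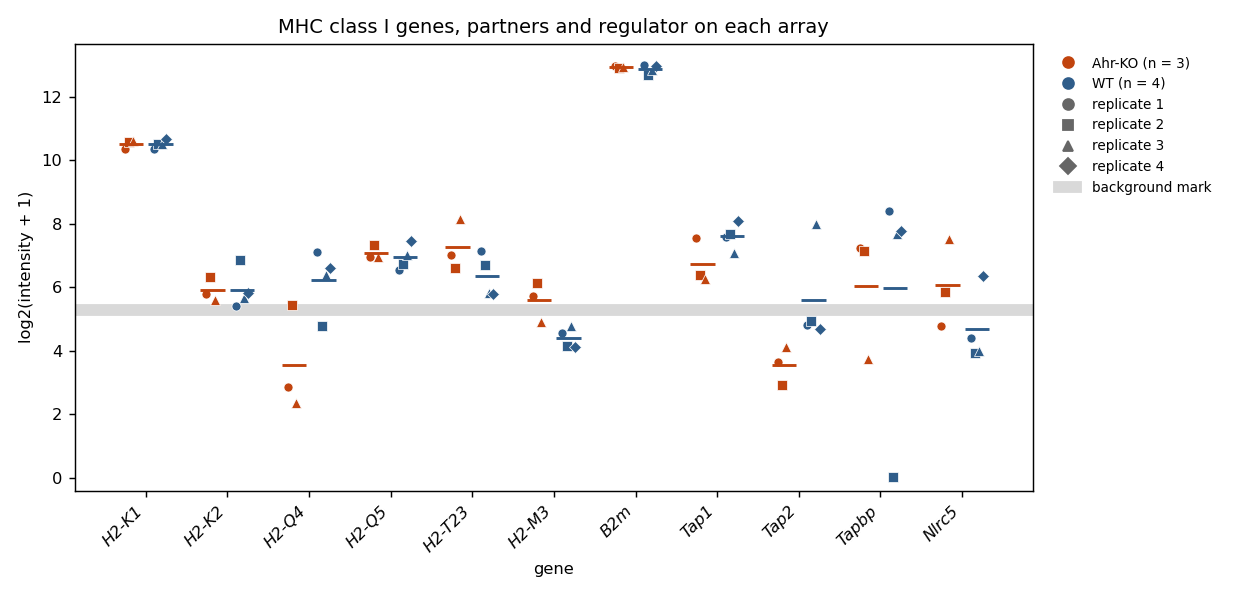
Log2(intensity + 1) of 6 class I heavy chain genes, B2m, peptide-loading genes and Nlrc5 on each array, with group means as bars and the background mark in grey. B2m and H2-K1 form tight clusters in both groups, Tapbp on WT replicate 2 lies near 0, and Tap2 and H2-M3 show groups that do not overlap.

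The peptide transporter genes had lower values in Ahr-KO. Tap1 was above background on all arrays, at 186, 82.5 and 76.6 in the knockout against 190, 203, 134 and 273 in the wild type. Only Ahr-KO replicate 1 reached into the WT range, and the difference was -0.87 ± 0.51 (SE; limma adjusted p = 0.963). Tap2 read 11.6, 6.53 and 16.4 on knockout arrays and 27.3, 29.5, 255 and 24.6 on wild-type arrays. The groups did not overlap, yet the mark was passed on WT replicate 3 alone, and the difference of -2.04 ± 0.88 (SE; unadjusted p = 0.0493, limma adjusted p = 0.963) was -1.25 without it.

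Tapbp, the tapasin gene, was uneven, with values of 151, 141 and 12.4 in knockout cells, against 337, 0.03, 202 and 217 in wild-type cells. The difference was 0.08 ± 2.06 (SE) on all arrays and had no stable sign: leaving out WT replicate 2, the array at 0.03, gave -1.90, and it was -0.53 without Ahr-KO replicate 1 and -0.47 without Ahr-KO replicate 2. The other Tapbp probe set, dimmer in mean, differed by -0.20 ± 1.13 (SE). Nlrc5, the class I counterpart of Ciita, went the other way from the Tap genes, at 26.8, 57.1 and 183 in the knockout against 20.4, 14.4, 14.9 and 80.5 in the wild type. It exceeded the mark on 2 Ahr-KO arrays and 1 WT array and differed by 1.38 ± 0.85 (SE; adjusted p = 0.963 by limma). Without its highest array, Ahr-KO replicate 3, that was 0.65.

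Of the non-classical heavy chains, H2-M3, which presents bacterial N-formyl peptides, had higher values in Ahr-KO. Intensity was 51.7, 70 and 28.9 against 22.6, 16.9, 26.4 and 16.5 in WT. Groups were separate, with the third Ahr-KO array only just above the highest WT array, and no WT array passed the background mark. The difference was 1.18 ± 0.48 (SE; unadjusted p = 0.0407, limma adjusted p = 0.963). H2-T23, which encodes Qa-1, the ligand of the CD94 and NKG2 receptors, stood at 128, 96.1 and 284 on knockout arrays and 140, 104, 55.4 and 54 on wild-type arrays, overlapping, with a difference of 0.89 ± 0.59 (SE) that was 0.44 when Ahr-KO replicate 3 was left out.

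H2-Q4, of the Q region of the complex, depended on the probe set read. The brighter one had values of 6.25, 43 and 4.19 in knockout cells, against 139, 26.8, 82.6 and 97.5 in wild-type cells, a difference of -2.67 ± 0.89 (SE; unadjusted p = 0.0171, limma adjusted p = 0.963), with Ahr-KO replicate 2 inside the WT range. The other differed by 0.17 ± 0.73 (SE), so this gene has no direction supported by both. H2-Q5 likewise differed by 0.15 ± 0.44 (SE) on one and -0.34 ± 1.46 (SE) on the other, while both H2-Q10 probe sets gave -0.54. The pseudogene H2-K2 was above background on all arrays at 54.3, 79.3 and 47.5 in the knockout against 41.2, 115, 49.6 and 55.2 in the wild type, a difference of -0.03 ± 0.51 (SE).

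The H2-M family was mostly dark. Of 12 such genes, 9 exceeded the background mark on no array, including 5 of the 6 H2-M10 genes, which are known from sensory neurons of the vomeronasal organ, and H2-M1 and H2-M9. Differences in these genes were not detectable at this signal. H2-M5 was above the mark on 5 arrays, at 44, 46.2 and 40.8 on knockout arrays and 39.2, 43.5, 24.4 and 19.3 on wild-type arrays, a difference of 0.53 ± 0.47 (SE). H2-Ke6 was above background on all arrays and differed by -0.14 ± 0.65 (SE), with WT values from 344 to 1805.

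Class I heavy chains as a group had 13 higher and 9 lower values in Ahr-KO and a median difference of 0.22. This median was 0.03 without Ahr-KO replicate 2, 0.37 when WT replicate 1 was left out and 0.13 when WT replicate 3 was. Set against class II within each array, the mean log2 value of the 11 class II genes minus that of the 22 heavy chain genes was 0.27, 0.62 and -0.20 for knockout arrays, compared with 0.93, 0.28, 1.14 and 1.28 for wild-type arrays. The first Ahr-KO array and WT replicate 2 were nearly equal and Ahr-KO replicate 2 lay above WT replicate 2, so the groups overlapped. The genotype difference of this contrast was -0.68, with within-group SDs of 0.41 (n = 3) and 0.44 (n = 4). Over the 10 heavy chain and 6 class II genes at or above the median level of all probe sets, it was -0.39. The contrast is given as a description, with no test, because members are not replicates.

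All genes were split into 10 bins of equal size by mean level, and each member's within-group SD was set against its bin. For B2m 0.6% of the genes in its bin were steadier, and for H2-K1 1.6%. With H2-Bl, H2-Q5 and Ciita, 5 members were among the steadiest 10% of their bin. Of the 7 members among the noisiest 10%, 4 were class II accessory genes (H2-DMb1, H2-DMb2, H2-Oa and H2-Ob), beside H2-Ea, H2-T10 and Tapbp.

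Markers of other antigen-presenting cells were measured beside class II. Macrophage and dendritic markers had lower values in Ahr-KO for 11 of 14, with a median difference of -0.25, none past the threshold. Adgre1, below background throughout, was the 1 marker with separate groups (5.78% of all genes), lower in Ahr-KO (3.15%). Their summed intensity ran from 1007 to 1500 in Ahr-KO and from 1113 to 1389 in WT. Cd209a, Zbtb46, Siglech, Cd68 and Cx3cr1 exceeded background on all arrays, while Itgax, Batf3, Adgre1, C1qc and Ly75 did so on none. No marker of this list was listed at exactly 0.

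B lymphoid markers were lower in Ahr-KO for all 9 measured, with a median of -0.31 and summed intensities of 254 to 330 in Ahr-KO and 282 to 532 in WT. Of these 9, 5 (Cd79a, Ms4a1, Cd22, Vpreb1 and Igll1) were above background on no array, Blk on every array, and none was at exactly 0. The mean log2 level of the B list was highest on WT replicate 2 (5.11), where the granulocyte and monocyte list also peaked. On that array H2-Eb1 and H2-DMb2 had their highest values, but H2-Ab1, H2-DMb1, H2-Oa and H2-Ob had their lowest of the WT arrays, and the class II mean (4.71) was the lowest of the 4 WT arrays. Granulocyte and monocyte markers were higher in Ahr-KO for 10 of 10, with a median of 1.07 and none past the threshold. Their mean log2 level was 8.66, 10.03 and 7.95 on knockout arrays and 4.90, 10.45, 8.46 and 7.48 on wild-type arrays. The groups overlapped, with WT replicate 1 far below all other arrays. S100a8, for example, stood at 5.97 there and at 1298 or more on the other WT arrays. Over the whole list the other WT arrays, from 7.48 to 10.45, enclosed the Ahr-KO values of 7.95 to 10.03. The direction of the list without WT replicate 1 was not tested. Of 8 T and NK markers 6 were higher and of 4 endothelial markers 3. The part of these cell types in the class II values was not tested.

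**Figure D4:**
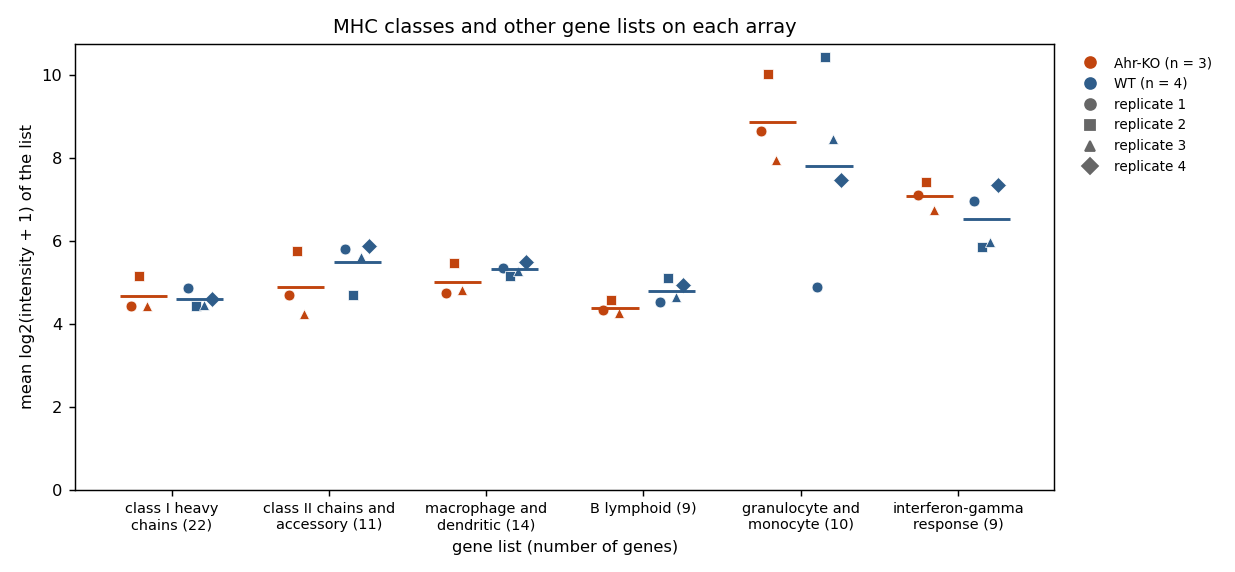
Mean log2(intensity + 1) of each gene list on each array, with group means as bars. The class II mean is lowest on Ahr-KO replicate 3 and highest on WT replicate 4, and the granulocyte and monocyte list spans the widest range, from 4.90 to 10.45 on WT arrays.

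Other antigen presentation genes, from a list of 39 of which 38 were measured, had 26 higher and 12 lower values in Ahr-KO and a median of 0.56. None passed the adjusted threshold. An unadjusted p under 0.05 was found for 2 (4.02% of all genes), and 4 had groups that did not overlap (5.78% of all genes), all higher in Ahr-KO (2.62%). Those with the smallest p were led by Ifngr2, a chain of the interferon gamma receptor, at 197, 248 and 956 in knockout cells, against 137, 103, 17.5 and 59.3 in wild-type cells. Every Ahr-KO value exceeded every WT value, for a difference of 2.52 ± 0.86 (SE; limma adjusted p = 0.963). Fcgrt, a class I-like heavy chain that carries IgG, differed by 1.87 ± 0.74 (SE) with overlapping groups.

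The next genes were Cd86, a costimulatory ligand above background on 1 array, at 1.30, and Creb1, a factor that binds the X2 part of the class II module, at 2.80 ± 1.32 (SE). Creb1 read 507, 662 and 631 on knockout arrays, each above the wild-type values of 150, 4.71, 384 and 160. Irf8, a transcription factor of dendritic cells, differed by 3.42 ± 1.69 (SE) with overlapping groups. It read 111, 519 and 253 on knockout arrays and 6.21, 0.57, 248 and 98.2 on wild-type arrays, of which 2 exceeded background. Mr1, a class I-like gene that presents vitamin B metabolites, differed by 1.30 ± 0.70 (SE) and was above background on 2 arrays, both Ahr-KO. The immunoproteasome genes Psmb8 and Psmb9, which cut class I peptides, differed by 0.12 and -0.08. Of 9 interferon gamma response genes, 5 had higher and 4 lower values (median 0.12), none past the adjusted threshold. Cxcl9, a chemokine induced by interferon gamma, stood out among them at 507, 336 and 283 on knockout arrays and 65.3, 40.6, 32.1 and 48.4 on wild-type arrays. Its groups were separate and its difference was 2.99 ± 0.47 (SE; unadjusted p = 0.00023, limma adjusted p = 0.961), a smaller p than that of any MHC member. Cxcl9 passed the background mark on 3 Ahr-KO arrays and 2 WT arrays. Igtp also had separate groups (1.80 ± 0.86, SE), at 215, 494 and 226 on knockout arrays and 97.8, 125, 17.3 and 211 on wild-type arrays. Gbp3 had an unadjusted limma p of 0.0391 with overlapping groups. Of the 9 genes, 2 thus had separate groups (5.78% of all genes) and 2 an unadjusted p under 0.05 (4.02% of all genes). The 4 lower genes were Cxcl10, below background throughout (-1.43 ± 0.86, SE), Irf1 (-0.52), Iigp1 (-0.48) and Psmb9 (-0.08).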

How the data were processed

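Gene expression was measured on 7 arrays (3 Ahr-KO, 4 WT). The deposited table gives each probe set a linear intensity on each array. The submitters' processing notes list Affymetrix Expression Console; for summarization, background correction, normalization and genome build, the sources used here give no method. Of 41155 rows, 25335 had a gene in the platform annotation: 23521 with 1 symbol and 1814 with several. The symbols of 39 members were unchanged in the RefSeq table.

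Values were transformed to log2(intensity + 1) and fitted with limma 3.58.1 (R 4.3.3; lmFit, eBayes) with genotype as the only term. Two-sided p-values were adjusted by Benjamini-Hochberg over 25335 probe sets at a threshold of 0.05. The number of arrays limits the precision. Promoter motifs were searched in RefSeq sequences.

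Members, lists, background mark and naming rule were chosen with earlier results of these data known. Named members were the class II chain (without H2-Pb), accessory and regulator genes, H2-K1, B2m, Tap1, Tap2, Tapbp and Nlrc5, and any other above the mark on all arrays, at unadjusted p under 0.05 or with separate groups; members named otherwise, such as H2-M5, were chosen after their values were seen. The 6 pathway genes had the smallest p in their list; Psmb8 and Psmb9 were added after their values were seen. Alternatives were each array left out, a replicate block, 2 other normalizations, a pseudocount of 16, a filter at the median level, a trended prior, array weights, all rows and other probe sets.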

Additional observations from a re-analysis of the deposited data

Results flagged for a closer look

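In 5 of 40 members 1 WT array lay far from the other 3 on the log2 scale, by a gap rule that chance meets in about 1 of 20 groups and that 6.94% of 22175 genes with unequal WT values met on these arrays. Tap2 stood at 255 on WT replicate 3 and at 24.6, 27.3 and 29.5 on the others. Ciita stood at 44.4 on the same array, against 28.4, 28.6 and 30.2. WT replicate 2 was the low array for Tapbp (0.03, against 202, 217 and 337) and for H2-Ob (0.38, against 9.63, 13.2 and 14.2). H2-Pb stood at 5.48 on WT replicate 3, against 14.5, 15.4 and 17.2, all below the background mark.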

How the results depend on the processing

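No member passed limma's adjusted threshold under any alternative, adjustment over all rows included, and the lowest adjusted p of a named member was 0.717; no annotated probe set passed under the alternatives fitted to them. Among 23 named members, 11 kept their sign under all alternatives, H2-Eb1 (-3.05 to -1.58) among them. The count of members whose groups do not overlap was 2 after quantile normalization and 2 after median centring, and 2 to 8 over all settings (5 to 8 with single arrays left out: 7 without Ahr-KO replicate 1 or 2, 8 without Ahr-KO replicate 3 or WT replicate 2). Smaller groups separate more often for any gene: with single arrays left out 9.27 to 14.5% of all genes had groups that do not overlap, against 5.78% with all arrays, 5.14% after quantile normalization and 5.37% after median centring. Members at unadjusted p under 0.05 numbered 1 to 5 with single arrays left out: 1 without Ahr-KO replicate 1 and 2 without WT replicate 1, beside 3.63 to 5.16% of all genes. With the filter at the median level 23 members were tested, of which 12 were higher. The class contrast ran from -0.89 without WT replicate 2 to -0.39 with the filter at the median level. Signs turned for H2-K1 (0.04 with the replicate block and 0.04 with median centring), H2-K2 (0.03 with median centring, 0.12 with array weights), B2m (-0.18 with quantile normalization), Tapbp (-0.11 with quantile normalization, -0.52 with a pseudocount of 16, -0.58 with array weights, -0.20 on its other probe set), H2-Q4 (0.17) and H2-Q5 (-0.34) on their other probe sets; the cause was not tested. With single arrays left out, values ranged from -0.07 to 0.06 for H2-K1, -0.24 to 0.28 for H2-K2, -1.90 to 1.23 for Tapbp, -0.63 to 1.71 for H2-DMb1, -0.03 to 2.80 for H2-Ob, -1.69 to 0.27 for H2-Ab1, -0.94 to 0.73 for H2-Ea, -0.02 to 0.72 for H2-Eb2 and -0.54 to 0.25 for H2-Ke6.

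Arrays of the same replicate number shared little deviation from their group means, with correlations of 0.023, -0.065 and 0.01. These were not compared with other pairs and cannot show whether the arrays were paired by design. The replicate block gave 3 members at unadjusted limma p under 0.05 (4.4% of all genes), against 4 without it (4.02%). None passed the adjusted threshold in either fit. Signal near background limits most class I genes other than H2-K1 and B2m.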

Other observations

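Of 7 H2- probe sets assigned to several genes, which the member rule left out, 4 from the H2-Q and H2-D1 region were above the background mark on all 7 arrays. A probe set for H2-Q7, H2-Q9 and H2-Q8, of the Qa-2 group of non-classical class I molecules, read 1308, 752 and 1830 on knockout arrays and 781, 663, 1123 and 1649 on wild-type arrays. The difference was 0.30 ± 0.54 (SE). A second one for these 3 genes differed by 1.11 ± 0.79 (SE), and that for H2-Q6 and H2-Q8 by -0.38 ± 0.59 (SE). The probe set for H2-T22 and H2-T9, known as ligands of some gamma delta T cells, read 9.54, 39.1 and 52.4 against 19.4, 7.19, 1.66 and 3.28, a difference of 2.10 ± 0.86 (SE; unadjusted p = 0.0414, limma adjusted p = 0.963) with overlapping groups.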
